A study of Mus musculus with 23 samples.

Results

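The genes of the bone morphogenetic protein (BMP) and transforming growth factor beta (TGF-beta) pathways were described in the C3H10T1/2 line, mouse mesenchymal stem cells that form adipocytes in culture. The 47 genes were taken from a fixed list of symbols covering ligands, receptors, SMAD proteins, secreted antagonists and the ID target genes, and all 47 were found among the 24029 genes of the deposited table. RNA was measured at day 7 (mature adipocytes) and at day 0 (pre-adipocytes). All cells, those of day 0 included, had been seeded at 70% confluency and grown for 3 days with 8.3 nM human recombinant BMP7. From day 0 to day 2 the differentiating cells received 5 uM DEX, 0.5 mM IBMX, 0.12 ug/ml insulin, 1 uM of a compound labelled Rosi and 1 nM T3, and from day 2 to day 7 insulin, Rosi and T3 only. At each day 1 library, labelled N9, was made by TELP, the construction method that the study tested, and 1 by the standard procedure of a sequencing company with bead-enriched mRNA. Both other TELP libraries, N9_ss and T18, are from day 7. What N9, ss and T18 stand for is not stated.

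BMPs and TGF-betas are secreted dimers that bring type I and type II serine/threonine kinase receptors together. The type I receptor then phosphorylates receptor SMADs, SMAD1, SMAD5 and SMAD9 for BMPs and SMAD2 and SMAD3 for TGF-betas and activins, which enter the nucleus with SMAD4 and bind DNA. In mesenchymal cells BMP4 and BMP7 are known to promote commitment to the fat lineage, TGF-beta is known to hold back adipocyte differentiation, and the ID genes are classical BMP targets.

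Most kept genes of the pathway had lower values at day 7 than at day 0 (30 of 32 in the standard libraries, 30 of 33 in TELP N9), and the differences were larger in the TELP N9 libraries than in the standard ones. The median over all genes kept was also below 0, at -0.18 in the standard libraries and -0.45 in TELP N9. Below that median lay 30 of the 32 and 28 of the 33 pathway genes. Of the 47, 32 were kept in both library types. Of the 32, 11 lay at least 1 log2 unit lower at day 7 in both (34.4%, against 6.03% of all genes kept). These were the ligands Bmp4, Tgfb2, Tgfb3 and Inhba, the receptors Acvr1 and Tgfbr2, the antagonists Grem1, Fst and Fstl1, and the target genes Id2 and Id4. With median-of-ratios scaling 6 of the 11 remained, without Tgfb3, Acvr1, Tgfbr2, Grem1 and Fstl1. The ligand Gdf5 alone among the 47 was at least 1 log2 unit higher at day 7 in both (7.33% of all genes kept were).

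The deposited values are RPKM, reads scaled to gene length and to the library's read total, so levels can be set beside each other between genes. Differences are on the scale of log2(RPKM + 1), which understates the change of low genes. A gene was kept where it averaged at least 1 RPKM over the 2 libraries compared, and called where the difference was at least 1 in size. With 1 library per group there is no replicate error, calls by size carry no test, and a call describes these libraries. Day 7 values of N9 and N9_ss rest largely on the same reads: of 3609 low genes, 3008 (83.3%) stood at one common ratio of read steps between them, against 297 of 2980 (9.97%) between the standard day 7 and day 0 libraries. N9_ss is therefore not a replicate of N9. Relative to the standard day 0 library, set at 1, depth was 0.985 for standard day 7, 0.382 for N9 day 7, 0.4 for N9_ss, 0.331 for T18 and 1.57 for N9 day 0, so that low values at day 7 in TELP rest on fewer reads. In T18 the 10 genes with most RPKM held 79.8% of the total, against 32.8% in N9 day 7 and 9.80% in standard day 7. In tissue-culture samples measured in bulk, fewer cells of a type and less RNA per cell cannot be told apart.

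Of 32 pathway genes kept in the standard libraries, 11 were called lower at day 7 (34.4%, against 6.53% of all genes kept) and 1 was called higher (against 8.22%). In the TELP N9 libraries 21 of 33 were called lower (63.6%, against 29.9% of all genes kept) and 2 higher (against 13.9%). Of the 32 genes kept in both, 11 were called lower in both types (34.4%, against 6.03% of 10988 genes; 6 by median of ratios) and 1 higher (against 7.33%), and 0 were called in opposite directions. In a limma fit over the 4 libraries with library type as a block, 0 of 32 pathway genes were higher (0.715% of all genes were) and 0 lower (0.105% of all genes were) at an adjusted p of 0.05, and 18 of the 32 had an unadjusted p under 0.05, against 26.3% of all genes. Genes that were kept through the day where they are high had to differ, so these shares describe the kept genes only. The median difference of the pathway genes was -0.70 in the standard libraries, beside -0.18 over all genes kept, and -1.61 in TELP N9, beside -0.45 over all genes kept. With median-of-ratios scaling, which puts the median gene near 0, the pathway medians were -0.51 and -1.13 in the same libraries, so the distance from all genes was -0.51 and -1.14. The share of higher genes among all called genes moved with the scaling, being 55.7% in the standard libraries (68.8% by median of ratios) and 31.8% in TELP N9 (52.1% by median of ratios, 49.6% by quantile normalization, 17.4% by equal totals). For genes called in both types it was 54.8%, against 70.1% by median of ratios.

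**Figure D1:**
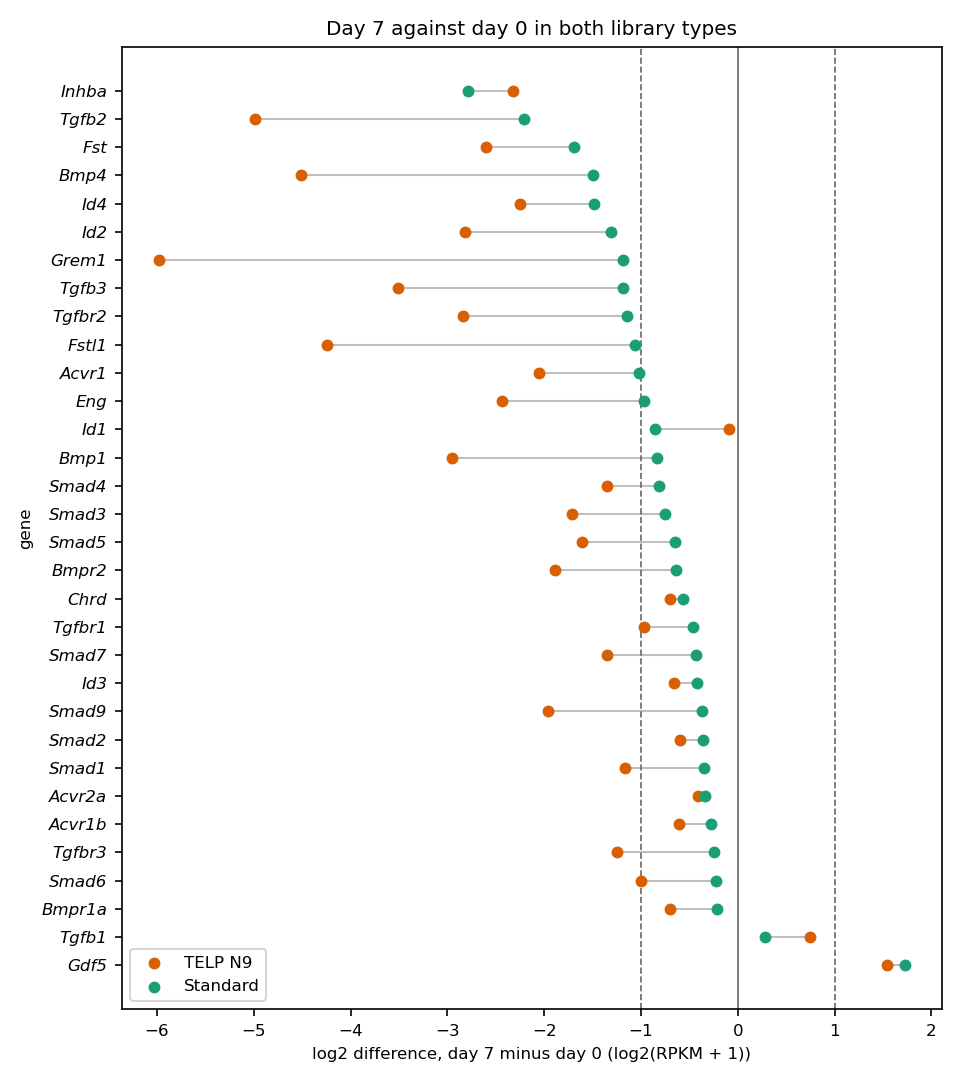
Difference between day 7 and day 0 in log2(RPKM + 1) for the 32 pathway genes kept in both library types, with 1 dot for TELP N9 and 1 for the standard libraries (1 library per day each) and dashed lines at -1 and 1. The TELP dots lie below the standard dots for 29 of the 32 genes, and Gdf5 is the gene with both dots above 1.

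Among the ligands, Bmp4, Tgfb2 and Tgfb3 carried most of the signal at day 0. Bmp4, which can drive mesenchymal stem cells into the fat lineage, stood at 20.4 RPKM at day 7 and 59.2 RPKM at day 0 in the standard libraries. In TELP it stood at 2.23 RPKM in N9, 2.13 in N9_ss and 5.47 in T18 at day 7, and at 72.9 RPKM in N9 at day 0. The difference was -1.50 in the standard libraries and -4.52 in N9. Tgfb2, a TGF-beta isoform, stood at 14.7 RPKM at day 7 and 71.6 RPKM at day 0 in the standard libraries. In TELP it was at 1.41, 1.34 and 1.67 RPKM in the day 7 libraries N9, N9_ss and T18, and at 75.1 RPKM at day 0. Its differences were -2.21 in the standard libraries and -4.98 in N9. Tgfb3 was at 8.40 RPKM at day 7 and 20.3 RPKM at day 0 in the standard libraries, while TELP gave 1.08, 1.09 and 0.659 RPKM in N9, N9_ss and T18 at day 7 against 22.8 RPKM in N9 at day 0. Its differences were -1.18 in the standard libraries and -3.51 in N9. The value in the standard libraries was -0.998 by median of ratios and then just missed the call.

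Inhba encodes the subunit of activin A. It was at 0.106 RPKM at day 7 and 6.65 RPKM at day 0 in the standard libraries, while TELP gave 0.411, 0.393 and 0.475 RPKM in N9, N9_ss and T18 at day 7 against 6.06 RPKM in N9 at day 0. This was one of the few genes with a smaller decrease in N9 (-2.32) than in the standard libraries (-2.79). Tgfb1, the isoform most studied for its block on fat cell formation, did not follow the other isoforms. It was at 1.86 RPKM at day 7 and 1.36 RPKM at day 0 in the standard libraries, while TELP gave 3.36, 3.21 and 0.666 RPKM in N9, N9_ss and T18 at day 7 against 1.61 RPKM in N9 at day 0. The differences of 0.28 and 0.74 did not reach a call, though the N9 value passed 1 with a pseudocount of 0.1 (1.02), by median of ratios (1.10) and by quantile normalization (1.29). By equal totals (0.38) and with N9_ss in place of N9 (0.69) it stayed under the call.

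Gdf5, a BMP-type ligand known from joint and cartilage formation, was the ligand called higher in both types. It was at 2.30 RPKM at day 7 and listed at 0 at day 0 in the standard libraries, while TELP gave 2.58, 2.47 and 1.69 RPKM in N9, N9_ss and T18 at day 7 against 0.230 RPKM in N9 at day 0. Its low values correspond to 69 whole reads at standard day 7, 30 in N9, 30 in N9_ss and 17 in T18 at day 7, against 11 in N9 at day 0. The standard difference of 1.72 rests on the value listed at 0 at day 0, which can be a failed estimate. The N9 difference was 1.54. Bmp3, a BMP-family member known to oppose osteogenic BMPs, was at 2.75 RPKM in N9 at day 7 and 0.0143 RPKM in N9 at day 0, a difference of 1.89. In the standard libraries it was at 0.315 RPKM at day 7 and 0.0239 RPKM at day 0, under the filter, and T18 had 0.0721 RPKM. Gdf15, a stress-responsive distant relative, was at 1.24 RPKM in N9 and 1.18 RPKM in N9_ss but listed at 0 in T18 and in both standard libraries, and it was at 0.0501 RPKM in N9 at day 0. Bmp7, the ligand added to the medium, was listed at 0 in 5 libraries and was at 0.00861 RPKM in N9 at day 0. Bmp2 and Gdf10 were listed at 0 in all 6 libraries.

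Because Bmp4 and Tgfb2 were lower while Gdf5, Tgfb1 and, in N9, Bmp3 were not, the makeup of each ligand family differed between the days. How far it differed depended on the library type. Bmp4 held 87.8% of the summed RPKM of the BMP-type ligands at standard day 7 and 97.6% at standard day 0. In N9 it held 29.5% at day 7, beside 36.3% for Bmp3 and 34.1% for Gdf5, and 97.9% at day 0. In T18 at day 7 Bmp4 held 74.7%, Gdf5 23.1% and Bmp3 0.984%. Bmp3 held 1.36% at standard day 7. The sum itself was 23.2 RPKM at standard day 7 and 60.7 at standard day 0, and 7.56 RPKM in N9 at day 7 and 74.5 in N9 at day 0. Of the 3 TGF-beta isoforms together, Tgfb1 held 7.46% at standard day 7 and 1.46% at standard day 0, and 57.5% in N9 at day 7 and 1.62% in N9 at day 0. The level of Tgfb2 over that of Tgfb1 was 7.90 at standard day 7 and 52.7 at standard day 0, and 0.418 in N9 at day 7 and 46.6 in N9 at day 0. T18 at day 7 lay at 2.51. Tgfb1 was the most abundant isoform in N9 and N9_ss at day 7 only, and Tgfb2 was the most abundant in the other 4 libraries.

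**Figure D2:**
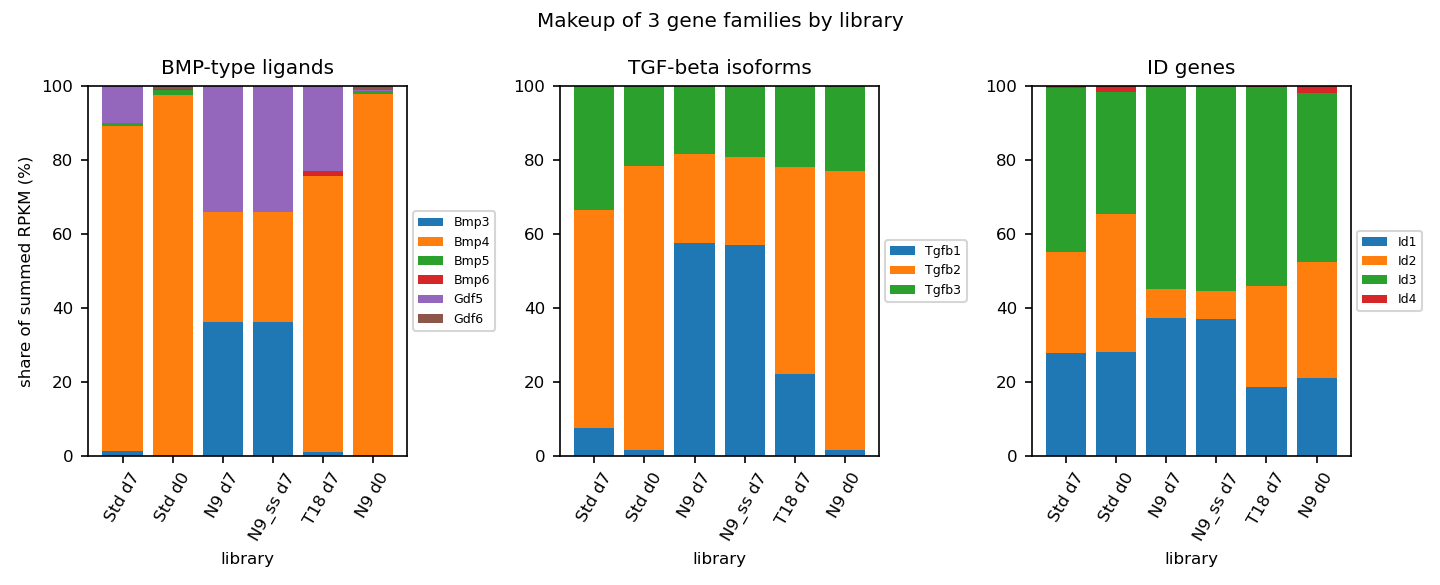
Share (percent) of the summed RPKM of each family held by its genes in the 6 libraries, with day 7 libraries left of day 0 within each library type, for BMP-type ligands, TGF-beta isoforms and ID genes. Bmp4 fills 97.6% and 97.9% of the first family at day 0 in the standard and N9 libraries. At day 7 it fills 87.8%, 29.5% and 74.7% in the standard, N9 and T18 libraries.

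Bmp1, the protease that processes procollagens and releases BMPs by cutting Chordin, was at 29.2 RPKM at day 7 and 52.8 RPKM at day 0 in the standard libraries. In TELP it was at 6.66, 6.97 and 1.59 RPKM in N9, N9_ss and T18 at day 7, and at 58.1 RPKM in N9 at day 0. It was called in N9 (-2.95) and not in the standard libraries (-0.83).

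Of the receptors, the TGF-beta type II receptor Tgfbr2 was the most abundant in 4 of the 6 libraries, and the BMP type I receptor Bmpr1a in N9 and N9_ss at day 7. It was at 60.6 RPKM at day 7 and 135 RPKM at day 0 in the standard libraries, while TELP gave 15.7, 15.3 and 5.91 RPKM in N9, N9_ss and T18 at day 7 against 118 RPKM in N9 at day 0. Its differences were -1.14 in the standard libraries and -2.83 in N9. Acvr1, the BMP and activin type I receptor ALK2, was at 10.5 RPKM at day 7 and 22.4 RPKM at day 0 in the standard libraries, while TELP gave 3.39, 3.31 and 0.652 RPKM in N9, N9_ss and T18 at day 7 against 17.2 RPKM in N9 at day 0. Its standard difference of -1.02 lay just inside the call, and its N9 difference was -2.05. By median of ratios the standard differences were -0.94 for Tgfbr2 and -0.83 for Acvr1, under the call. The decrease of Tgfbr2 was larger than that of its partner Tgfbr1, the type I receptor ALK5. Tgfbr1 was at 7.66 RPKM at day 7 and 10.97 RPKM at day 0 in the standard libraries, while TELP gave 6.15 RPKM in N9 at day 7 against 13.0 RPKM in N9 at day 0, with differences of -0.47 and -0.97. The level of Tgfbr2 over that of Tgfbr1 was 7.91 at standard day 7 and 12.3 at standard day 0, and 2.56 in N9 at day 7 and 9.08 in N9 at day 0.

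The main BMP type I receptor was Bmpr1a, since Bmpr1b was listed at 0 or under 0.03 RPKM in every library. Bmpr1a differed little in the standard libraries, being at 33.0 RPKM at day 7 and 38.6 RPKM at day 0. TELP gave 19.3, 19.0 and 5.64 RPKM in N9, N9_ss and T18 at day 7 against 31.9 RPKM in N9 at day 0. Its differences were -0.22 and -0.70, and 0 of the other type I receptors kept besides Acvr1 were called in either type. By equal totals the N9 differences of Bmpr1a (-1.19), Acvr1b (-1.02) and Tgfbr1 (-1.43) reached the call. The median over all genes kept was then -0.90. Among type II receptors, Bmpr2, which serves BMPs, was called in N9 only (-1.89, beside -0.64 in the standard libraries), and the activin receptor Acvr2a in neither (-0.41 and -0.34).

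Of the co-receptors, Tgfbr3 (betaglycan), which presents TGF-beta2 to the receptors, was the most abundant. It was at 18.5 RPKM at day 7 and 22.2 RPKM at day 0 in the standard libraries, while TELP gave 11.8, 11.6 and 3.48 RPKM in N9, N9_ss and T18 at day 7 against 29.5 RPKM in N9 at day 0. It was called in N9 (-1.25) and not in the standard libraries (-0.25). Its N9 difference was -0.76 by median of ratios and -0.99 by quantile normalization, under the call. Eng (endoglin) was at 4.61 RPKM at day 7 and 10.00 RPKM at day 0 in the standard libraries, while TELP gave 0.956, 1.08 and 0.520 RPKM in N9, N9_ss and T18 at day 7 against 9.56 RPKM in N9 at day 0. Its standard difference of -0.97 lay just outside the call, and its N9 difference was -2.43. Eng is also a marker of endothelial cells. The summed level of 8 endothelial markers was 1.45 RPKM at standard day 7 and 11.4 at standard day 0, and 0.0210 in N9 at day 7 and 9.59 in N9 at day 0. Tek held most of it in the standard libraries and in N9 at day 0 and was listed at 0 in N9 at day 7, and the other 7, Pecam1, Cdh5 and Cldn5 among them, summed to at most 0.269 RPKM in any library.

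All 8 SMAD genes were kept in both library types. In the standard libraries 0 of the 8 were called and their median difference was -0.40, and in N9 6 of the 8 were called lower (29.9% of all genes kept were) with a median of -1.35, beside -0.45 over all genes. By median of ratios the N9 differences of Smad1 (-0.72), Smad4 (-0.87) and Smad7 (-0.97) were under the call. By quantile normalization those of Smad1 (-0.69) and Smad7 (-0.76) were. Smad4, the partner shared by both branches, was the most abundant. It was at 13.6 RPKM at day 7 and 24.7 RPKM at day 0 in the standard libraries, while TELP gave 10.5, 9.90 and 2.81 RPKM in N9, N9_ss and T18 at day 7 against 28.4 RPKM in N9 at day 0, with differences of -0.81 and -1.36. In the BMP branch the N9 differences were -1.16 for Smad1, -1.61 for Smad5 and -1.96 for Smad9, beside -0.35, -0.65 and -0.37 in the standard libraries. In the TGF-beta branch Smad3 was lower than Smad2 in its difference, at -1.71 in N9 and -0.75 in the standard libraries, against -0.60 in N9 and -0.36 in the standard libraries for Smad2. The level of Smad3 over that of Smad2 was 1.52 at standard day 7 and 2.00 at standard day 0, and 0.795 in N9 at day 7 and 1.88 in N9 at day 0. Of the inhibitory SMADs, which shut the receptors down, Smad7 was called in N9 (-1.35) and Smad6 missed the call by little (-0.998), beside -0.43 and -0.22 in the standard libraries.

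The secreted antagonists held the most abundant gene of the pathway in 4 of the 6 libraries, Fstl1, and the largest decrease seen in N9. In N9 and N9_ss at day 7 Id3 was the most abundant. Fstl1, a follistatin-like glycoprotein, was at 612 RPKM at day 7 and 1275 RPKM at day 0 in the standard libraries, while TELP gave 65.7, 65.6 and 91.6 RPKM in N9, N9_ss and T18 at day 7 against 1266 RPKM in N9 at day 0. Its differences were -1.06 in the standard libraries and -4.25 in N9. Grem1 encodes Gremlin 1, which binds and blocks BMP2, BMP4 and BMP7. It was at 25.5 RPKM at day 7 and 59.4 RPKM at day 0 in the standard libraries, while TELP gave 0.253, 0.242 and 0.877 RPKM in N9, N9_ss and T18 at day 7 against 77.9 RPKM in N9 at day 0. The difference of -5.98 in N9 was the lowest of the 33 pathway genes kept there, beside -1.19 in the standard libraries. By median of ratios the standard differences were -0.86 for Fstl1 and -0.99 for Grem1, under the call.

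Grem1 can be set beside its ligand Bmp4. The level of Grem1 over that of Bmp4 was 1.25 at standard day 7 and 1.00 at standard day 0, and 0.113 in N9 and 0.160 in T18 at day 7 and 1.07 in N9 at day 0. The ratio at day 7 thus differed by library type, and the ratio at day 0 did so far less. Fst encodes follistatin, which binds activins. It was at 3.16 RPKM at day 7 and 12.4 RPKM at day 0 in the standard libraries, while TELP gave 1.31, 1.25 and 1.60 RPKM in N9, N9_ss and T18 at day 7 against 13.0 RPKM in N9 at day 0, with differences of -1.69 and -2.60. Chrd, which encodes the BMP antagonist Chordin, was kept in both types and not called (-0.57 and -0.70). Nog, which encodes Noggin, was under 1 RPKM throughout, with 15 whole reads at standard day 7 and 1 at standard day 0, and 2 reads in N9 at day 7 and 1 in N9 at day 0.

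The 4 ID genes encode helix-loop-helix proteins that lack a DNA-binding region and hold other factors of that class away from DNA. All 4 had lower values at day 7 in both library types, by differing amounts. Id2 and Id4 alone were called, in both types (6.03% of all genes kept were called lower in both). Day and time since the BMP7 treatment cannot be told apart here. Id2 was at 30.9 RPKM at day 7 and 78.3 RPKM at day 0 in the standard libraries. TELP gave 10.4, 10.2 and 17.1 RPKM in N9, N9_ss and T18 at day 7, against 79.0 RPKM in N9 at day 0. The Id2 differences were -1.31 in the standard libraries and -2.82 in N9. Id4 was at 0.629 RPKM at day 7 and 3.58 RPKM at day 0 in the standard libraries, while TELP gave 0.125, 0.119 and 0.144 RPKM in N9, N9_ss and T18 at day 7 against 4.36 RPKM in N9 at day 0, with differences of -1.49 and -2.25. For both, the value was lower at day 7 in the standard libraries and in N9, without replicates of either day.

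Id1 and Id3 stayed under the call in both types. Id1 was at 31.9 RPKM at day 7 and 58.5 RPKM at day 0 in the standard libraries, while TELP gave 49.7, 48.5 and 11.8 RPKM in N9, N9_ss and T18 at day 7 against 53.2 RPKM in N9 at day 0, with differences of -0.85 and -0.10 (0.41 in N9 by median of ratios). Id3 was at 50.8 RPKM at day 7 and 68.5 RPKM at day 0 in the standard libraries, while TELP gave 73.0, 72.7 and 33.9 RPKM in N9, N9_ss and T18 at day 7 against 116 RPKM in N9 at day 0, with differences of -0.42 and -0.66. For Id3 the day 7 values of N9 and N9_ss lay above the standard day 0 value, so the days overlapped across library types. Of the summed RPKM of the 4 genes, Id2 held 27.1% at standard day 7 and 37.5% at standard day 0, and 7.78% in N9 at day 7 and 31.3% in N9 at day 0. Id3 held the largest share in all libraries but standard day 0, with 54.8% in N9 at day 7.

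**Figure D3:**
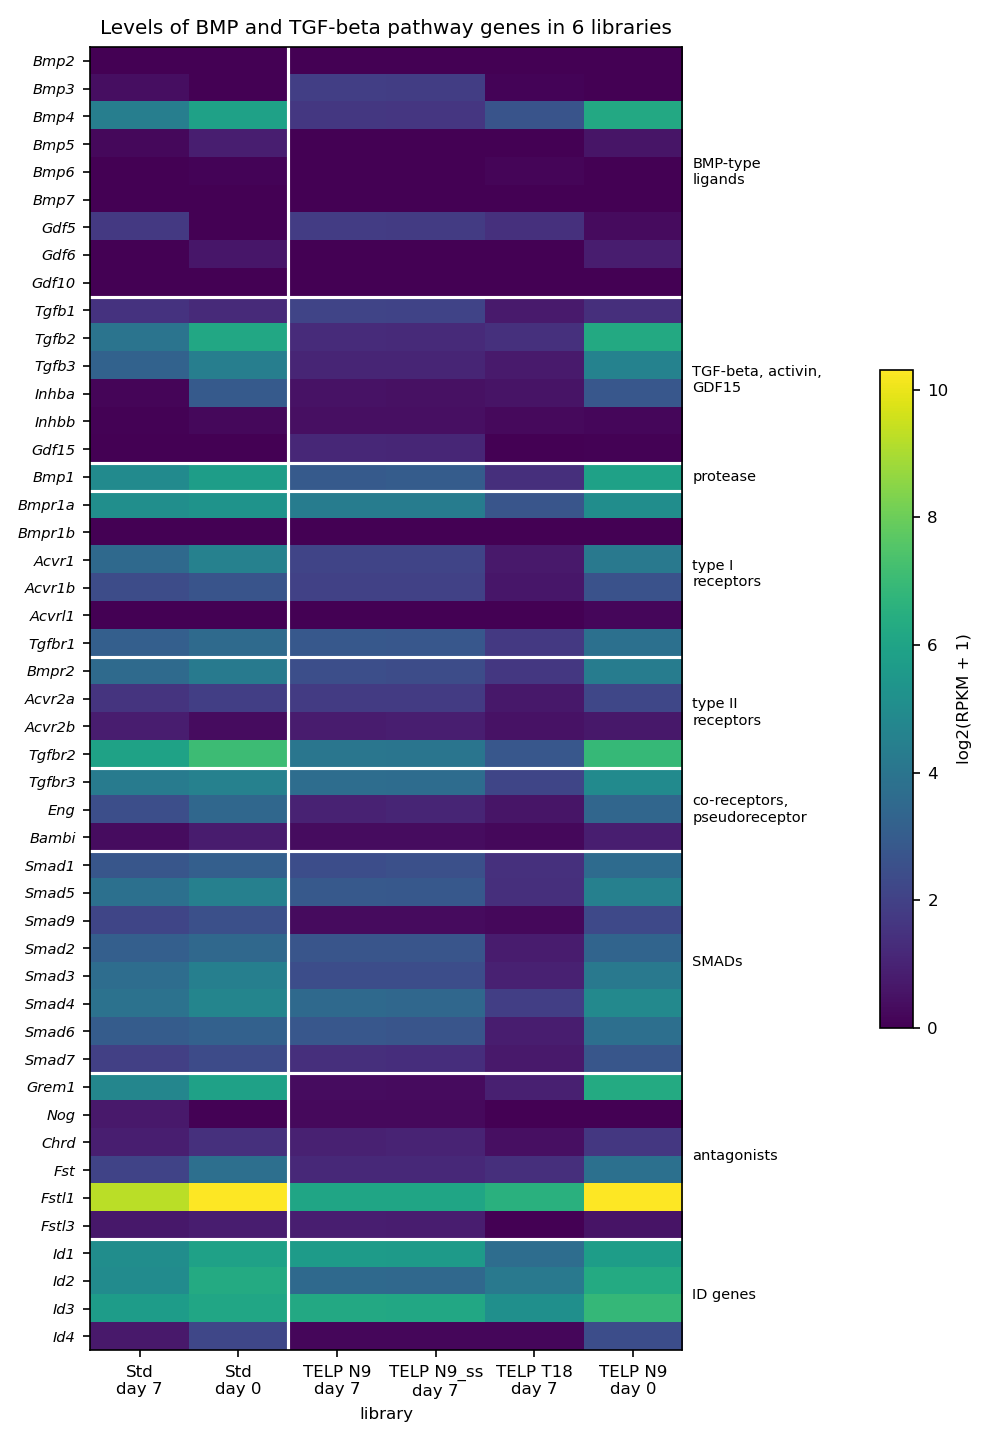
Level in log2(RPKM + 1) of the 47 pathway genes (rows, grouped by role) in the 6 libraries (columns, 1 library each), on 1 colour scale. Fstl1 has the highest level of the 47 at day 0 in both library types, at 1275 and 1266 RPKM in the standard and N9 libraries, and the T18 column has the most dark (low) cells, with 17 of the 47 genes at 1 RPKM or more.

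The promoters of 3 ID genes, called and not called, and of 3 genes with large decreases in N9 are shown because SMAD complexes are known to bind short motifs near BMP and TGF-beta targets. The windows are the 250 bases before the annotated start, 5′ to 3′ on the gene's strand, from RefSeq with build GRCm38.p6. Capitals mark the SMAD box CAGAC on either strand (its reverse complement reads GTCTG) and the GC-rich motif GGCGCC, which reads the same on both strands and shares no base with a CAGAC here. Id2 lies at chr12:25096093-25096342 (minus strand), Id3 at chr4:136143572-136143821 (plus strand), Id4 at chr13:48260866-48261115 (plus strand), Tgfb2 at chr1:186705990-186706239 (minus strand), Bmp4 at chr14:46390670-46390919 (minus strand) and Grem1 at chr2:113758649-113758898 (minus strand).
Id2: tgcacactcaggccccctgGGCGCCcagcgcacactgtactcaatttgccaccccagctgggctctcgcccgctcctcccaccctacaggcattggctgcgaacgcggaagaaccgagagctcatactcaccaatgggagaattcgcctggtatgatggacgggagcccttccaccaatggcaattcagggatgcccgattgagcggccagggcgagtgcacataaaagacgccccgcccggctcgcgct
Id3: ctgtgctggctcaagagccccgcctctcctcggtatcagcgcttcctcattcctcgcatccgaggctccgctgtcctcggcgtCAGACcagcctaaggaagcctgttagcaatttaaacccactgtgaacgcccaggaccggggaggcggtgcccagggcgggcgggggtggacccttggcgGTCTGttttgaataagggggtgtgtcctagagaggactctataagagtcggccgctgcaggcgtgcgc
Id4: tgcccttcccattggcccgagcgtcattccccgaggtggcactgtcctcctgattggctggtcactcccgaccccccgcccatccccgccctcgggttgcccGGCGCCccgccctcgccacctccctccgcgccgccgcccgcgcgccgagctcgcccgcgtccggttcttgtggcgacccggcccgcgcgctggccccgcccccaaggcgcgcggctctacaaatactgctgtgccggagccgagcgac
Tgfb2: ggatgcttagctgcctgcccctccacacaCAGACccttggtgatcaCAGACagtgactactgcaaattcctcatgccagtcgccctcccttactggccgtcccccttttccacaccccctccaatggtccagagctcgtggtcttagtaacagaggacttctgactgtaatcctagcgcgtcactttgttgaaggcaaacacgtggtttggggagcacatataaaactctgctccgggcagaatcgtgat
Bmp4: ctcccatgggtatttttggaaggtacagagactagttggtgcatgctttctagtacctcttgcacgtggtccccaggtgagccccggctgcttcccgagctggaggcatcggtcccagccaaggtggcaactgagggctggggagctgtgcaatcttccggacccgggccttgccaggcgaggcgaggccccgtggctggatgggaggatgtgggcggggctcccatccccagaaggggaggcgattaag
Grem1: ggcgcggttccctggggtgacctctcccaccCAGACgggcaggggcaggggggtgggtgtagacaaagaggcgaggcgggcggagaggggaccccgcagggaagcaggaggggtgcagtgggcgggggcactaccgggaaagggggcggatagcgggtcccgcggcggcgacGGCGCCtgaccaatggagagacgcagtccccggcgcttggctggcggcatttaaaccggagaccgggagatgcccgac

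The Id2 and Id4 windows each held 1 GGCGCC, 231 and 148 bases before the start, and 0 CAGAC. The Id3 window held 2 CAGAC, 167 and 68 bases before the start, and 0 GGCGCC. The Tgfb2 window held 2 CAGAC (221 and 204 bases before the start), and the Grem1 window held 1 of each (CAGAC at 219 and GGCGCC at 78 bases). The Bmp4 window held neither motif, and the table has no window for Id1. Of the 47 genes, 31 had a window, 4 of them more than 1. Counting the first window listed for each gene, CAGAC was in 13 of the 31 (41.9%), against 42.1% of 27025 genes in the table, and GGCGCC in 8 of the 31 (25.8%), against 9.54%. Counting any window of a gene, CAGAC was in 15 of the 31 and GGCGCC in 9. A match describes letters only, the windows shown were chosen with the calls known, and no link to the calls was tested.

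The library type was compared at each day. At day 0, 31 pathway genes were kept and 0 were called lower (0.718% of all genes kept were) or higher (2.2% were) in N9 than in the standard library. Their differences ran from -0.36 for Acvr1 to 0.75 for Id3, with a median of 0.13 beside 0.01 over all genes kept (-0.10 beside -0.21 by equal totals). At day 7, 13 of 30 pathway genes were called lower in N9 (43.3%, against 17% of all genes kept) and 1, Bmp3, was called higher (against 7.51%). The median was -0.80, beside -0.23 over all genes kept. The lowest differences were -4.40 for Grem1, -3.20 for Fstl1, -2.72 for Bmp4 and -2.71 for Tgfb2, and the highest was 1.51 for Bmp3. Id1 (0.62), Tgfb1 (0.61) and Id3 (0.51) lay above 0 at day 7 without reaching a call, and by equal totals Id1 (-0.13) and Id3 (-0.25) lay below it. Of the 32 genes kept in both day comparisons, 30 lay within 0.5 of each other between types at day 0 (90.6% of all genes did) and 10 at day 7 (47.2% of all genes did).

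**Figure D4:**
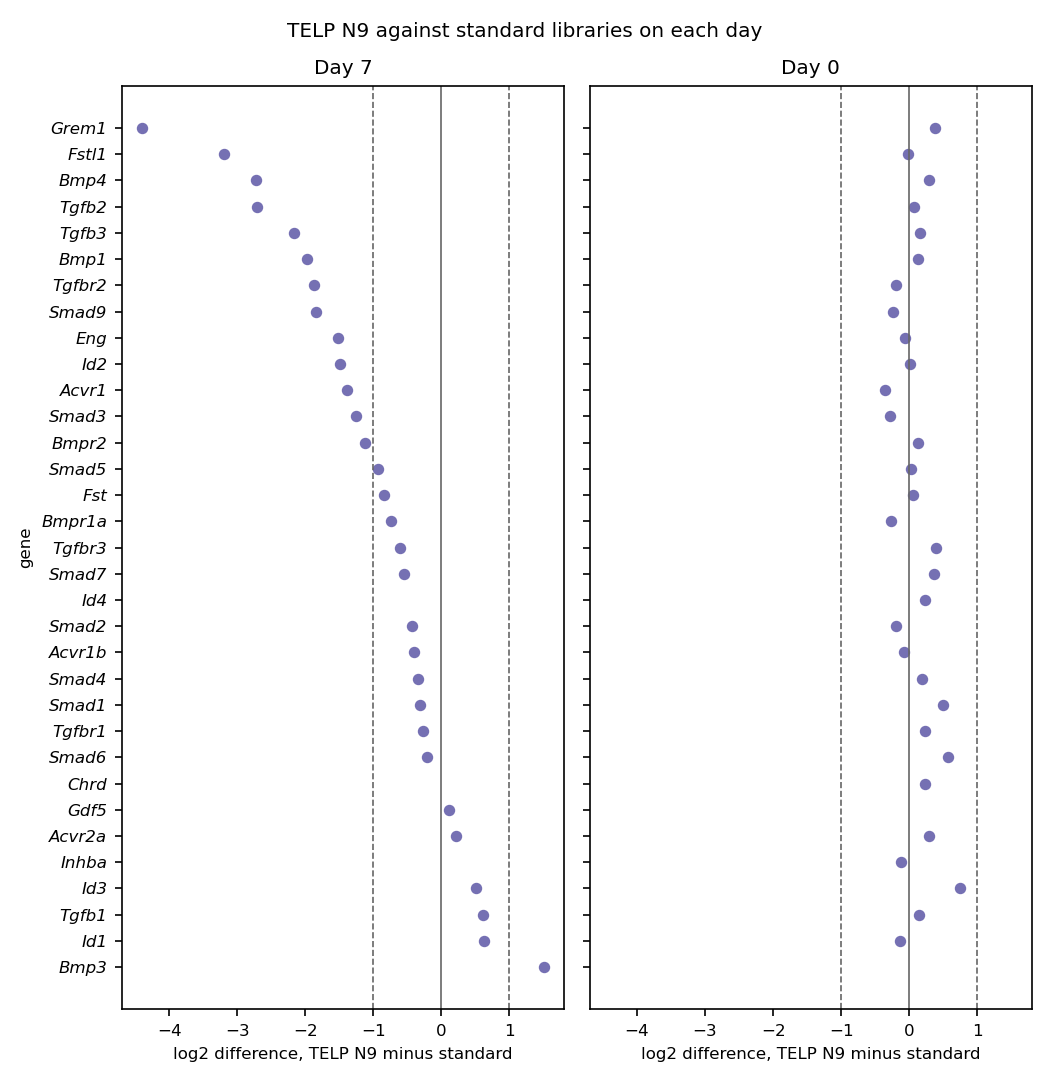
Difference between TELP N9 and standard libraries in log2(RPKM + 1) for 33 pathway genes, at day 7 (left panel) and day 0 (right panel), 1 library each, with a point only where the gene was kept at that day (30 at day 7, 31 at day 0). The day 0 points lie between -0.36 and 0.75, while at day 7 Grem1 reaches -4.40 and Bmp3 1.51.

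The day difference was lower in N9 than in the standard libraries for 29 of the 32 genes, against 66.3% of all 10988 genes kept in both, and the median gap was -0.91, beside -0.27 over all genes. Inhba, Tgfb1 and Id1 were the exceptions. A set of 10 genes, Bmp1, Bmpr2, Tgfbr3, Eng, Smad1, Smad5, Smad9, Smad3, Smad4 and Smad7, were called lower in N9 alone, and 0 in the standard libraries alone. By median of ratios the N9 differences of Tgfbr3, Smad1, Smad4 and Smad7 were under the call. Of all genes kept in each comparison, 29.9% were called lower in N9, 6.53% in the standard libraries and 6.03% in both. Lower calls in N9 alone were thus common over all genes, and such calls in the standard libraries alone were rare. The comparisons of days and of types share their libraries, so these values are not separate evidence.

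Markers of the cell state moved in the same libraries. The summed level of 8 adipocyte markers, with Fabp4 and Adipoq among them, was 14954 RPKM at standard day 7 and 39.9 at standard day 0, and 32709 in N9 and 5234 in T18 at day 7 and 29.9 in N9 at day 0. All 8 were called higher in both types. The sum of 7 preadipocyte markers was 238 RPKM at standard day 7 and 345 at standard day 0, and 59.4 in N9 and 47.0 in T18 at day 7 and 373 in N9 at day 0. Of these 7, 2 were called lower in both types (Dlk1 and Cd34, against 6.03% of all genes kept) and 6 in N9 (against 29.9%). Their median difference was -0.57 in the standard libraries and -2.65 in N9. Zfp423 went the other way, by 0.72 in the standard libraries and 0.48 in N9, without a call. The lower pathway genes thus stood in the libraries with lower sums of preadipocyte markers and higher sums of adipocyte markers. The part of cell makeup in the differences was not tested. Leukocyte markers Ptprc, Emr1, Csf1r and Itgam were at most 0.0690 RPKM in any library, and the whole list, mostly Cd68 and Cd14, summed to 3.30 RPKM at standard day 7 and 2.97 at standard day 0, and to 6.19 in N9 at day 7 and 3.37 in N9 at day 0. Of the osteoblast, chondrocyte and muscle lists, the levels were those of Phex, Sox9, Col2a1 and Acta1 above all, with sums of 39.6, 19.2 and 5.89 RPKM at standard day 7 and 62.1, 52.8 and 11.9 at standard day 0, and of 2.08, 5.48 and 8.66 RPKM in N9 at day 7 and 64.2, 77.5 and 36.6 in N9 at day 0.

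The T18 library at day 7 gave lower pathway levels than N9 at day 7, as it did for most genes. Of 26 pathway genes kept, 18 were called lower in T18 (69.2%, against 83.4% of all genes kept) and 1 was called higher (against 0.841%). The median was -1.32, beside -1.77 over all genes kept, and this direction turned with the scaling, to 0.39 by median of ratios (beside -0.09 over all genes) and to 0.58 by quantile normalization. The 5 kept genes that were higher in T18 than in N9 by RPKM were Bmp4, Tgfb2, Fst, Fstl1 and Id2, yet each stayed under both day 0 libraries. Grem1 was not kept in this comparison, at 0.877 RPKM in T18 and 0.253 RPKM in N9, and also stayed under both.

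The other genes of the pathway were taken from lists of further ligands, receptors, extracellular modulators, SMAD regulators and targets. Of these 78 genes, 47 were kept in both types, of which 4 were called higher (7.33% of all genes were) and 11 lower (6.03% of all genes were) in both. Acvr1c, the type I receptor ALK7, stood out among the receptors as it was higher at day 7. It was at 2.40 RPKM at day 7 and listed at 0 at day 0 in the standard libraries, while TELP gave 5.87 RPKM in N9 and 2.90 in T18 at day 7, and it was listed at 0 in N9 at day 0. Lefty2, an inhibitor of Nodal, was at 2.83 RPKM at standard day 7 and 4.83 RPKM in N9 at day 7, and listed at 0 at day 0 in both types and in T18. Nedd4l, a ubiquitin ligase that acts on SMAD2 and SMAD3, was higher by 1.14 in the standard libraries and 1.56 in N9.

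The 11 lower genes included 3 of the latent TGF-beta binding proteins, which store TGF-beta in the matrix. The differences in the standard and N9 libraries were -1.42 and -2.45 for Ltbp1, -1.47 and -3.65 for Ltbp2, and -1.59 and -2.79 for Ltbp4, whereas Ltbp3 was not called (-0.23 and 0.47). Tgfbi, a matrix protein named for its induction by TGF-beta, was the lowest of the targets, at -2.70 in the standard libraries and -4.18 in N9. The osteogenic transcription factors Runx2 (-1.20 and -2.49) and Dlx5 (-1.43 and -2.39) and the mesenchymal factor Snai1 (-1.09 and -1.59) were lower as well. The other lower genes were the BMP co-receptor Rgma, the BMP-binding Crim1, Tgfb1i1 and the cell-cycle inhibitor Cdkn2b.

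Of the 47 genes, 14 were kept in neither day comparison, namely Bmp2, Bmp5, Bmp6, Bmp7, Gdf6, Gdf10, Inhbb, Gdf15, Bmpr1b, Acvrl1, Acvr2b, Bambi, Nog and Fstl3. Of all 47, 13 were under 1 RPKM in all 6 libraries, and the highest value of the 14 was the 1.24 RPKM of Gdf15. Acvr2b rested on 16 whole reads at standard day 7 and 6 at standard day 0, and on 6 in N9 at day 7 and 20 in N9 at day 0, so that ratios between such values are imprecise. Median levels of the 47 were 3.46 RPKM at standard day 7 and 6.65 at standard day 0, and 1.63 in N9 at day 7 and 6.06 in N9 at day 0.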

How the data were processed

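RNA was measured in 6 libraries of the series; its 17 chromatin immunoprecipitation libraries were left out. Expression was deposited as RPKM values, in 1 table made by the authors. Bowtie2, TopHat and Cufflinks with the mm9 build are named per the submitters' processing notes; their settings, annotation, strand handling and read total are not stated there. Absolute depth is thus unknown, and relative depth came from the steps of low values, whose ratios multiplied to 0.99998 around the standard and N9 libraries. Whole reads were recovered for a few genes (tolerance 0.02 read, at most 100 reads, at least 4 libraries above 0), so no count test was run, and counting error is the least error such values carry.

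Values were compared as log2(RPKM + 1) for genes averaging at least 1 RPKM over the 2 libraries compared, with a call at a difference of 1. The genes described and all lists were chosen with earlier results of these data known. Genes were named with values where called alike in both library types, highest of their role, or listed at 0 in a library and at 1 RPKM or more in another; others where a comparison turned on them, after their values were seen. An exact 0 can be a failed estimate and is given as listed at 0. Nothing in the labels says that the libraries came from separate cultures.

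Alternatives were a pseudocount of 0.1, no filter, a filter at 5 RPKM, median of ratios, equal totals, quantile normalization, N9_ss in place of N9, and limma on 4 libraries with library type as a block (1 residual degree of freedom). Promoter windows were matched by symbol. A gene of the further pathway lists that the naming rule covers is not reported here. Software was Python 3.11.15, pandas 2.3.3, numpy 2.4.6, matplotlib 3.10.9, R 4.3.3 and limma 3.58.1.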

Additional observations from a re-analysis of the deposited data

How the results depend on the processing

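No paired analysis was possible because the RNA labels give no replicate numbers; the block in limma is the library type. With 1 library per group none could be left out in turn. Of 784 values of single pathway genes under alternatives, in the day comparisons and in N9 against standard, 741 kept their side of the call, 27 newly reached it and 16 no longer did. The 741 include 126 values with no filter and 91 with a filter at 5 RPKM. A filter leaves a difference unchanged, so these could not change side. Genes dropped at 5 RPKM were not counted, among them Inhba and Id4, which had been called lower in both types. The sign changed in 22 of the 784 values, of which 0 had been called. Of these 22, 20 were in N9 against standard. The other 2 were day differences in N9, of Id1 by median of ratios (0.41) and Acvr2a by quantile normalization (0.19). By median of ratios the genes called lower numbered 6 in the standard libraries and 6 in both types, because Tgfb3, Acvr1, Tgfbr2, Grem1 and Fstl1 no longer reached the call in the standard libraries, and in T18 against N9 7 were higher and 0 lower. Between the days in N9, 21 were lower in the main comparison, 17 by median of ratios, 18 by quantile normalization and 28 by equal totals. Quantile normalization gave 8 higher and 0 lower in T18, and 2 higher in N9 against standard at day 7; no filter also gave 2 there, and equal totals gave 21 lower there. Acvr1 also missed the call by quantile normalization (-0.92). With a filter at 5 RPKM, 0 pathway genes were higher in the standard libraries, in N9, in both types, in N9 against standard at day 7 and in T18, where 6 were lower. In limma with library type as a block, 0 of 32 pathway genes were higher and 0 lower at an adjusted p of 0.05, against 82 (0.715%) and 12 (0.105%) of 11474 genes; the smallest adjusted p was 0.0688 for Inhba, and 18 of 32 had an unadjusted p under 0.05 (56.2%, against 26.3% of all genes). Over all genes, N9 gave 3393 lower and 1580 higher, against 5236 and 1105 by equal totals and 2135 and 2322 by median of ratios; in both types 663 lower and 805 higher stood against 437 and 1026 by median of ratios. With 1 library per group, no statement covers the spread between cultures, and values under 1 RPKM in the day 7 TELP libraries rest on few reads.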

Other observations

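Gdf1, a ligand of the Nodal branch, differed between library types at day 0. It was at 7.50 RPKM in N9 against 0.140 RPKM in the standard library at day 0, and at 0.210 RPKM in N9 against 0.7505 RPKM in the standard library at day 7. Of the 78 further pathway genes, 47 were kept between the types at day 0. Gdf1 was the 1 called higher in N9 (2.2% of all genes kept were), and 0 were called lower (0.718% were). It was chosen here after its values were seen.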
